A study of Mus musculus with 11 samples.

Results

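The genes described here are 32 markers of brain blood vessels, taken by symbol from a list of endothelial, pericyte and vascular muscle genes, among 46202 gene rows measured in mouse hippocampus after insulin was given through the nose. Of the 32 genes, 20 are endothelial and 12 belong to pericytes and vascular muscle. All 32 were found in the table, all had a value in every library, and all 32 passed the filter on low values.

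Endothelial cells line brain capillaries, are sealed to each other by tight junctions, and carry transporters that set what passes between blood and brain. Pericytes share the capillary wall with them, and smooth muscle surrounds the arterioles and sets their diameter. The endothelium signals through receptor tyrosine kinases of the vascular endothelial growth factor and angiopoietin families, and pericytes depend on platelet-derived growth factor B from the endothelium, which acts on Pdgfrb.

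Male C3-C57B1/6J mice, 2 to 3 months old, received saline or 2.4 IU of insulin per nare, and hippocampus was collected under isoflurane. Saline is named in the titles of the control libraries (n = 3), although the same libraries are tagged Untreated and 0 min elsewhere in the labels; insulin libraries stand at 15 min (n = 2, replicates 1 and 3), 1 h (n = 3) and 6 h (n = 3). No allele, transgene or second agent is given for any group, and all groups share strain, sex, age range, housing and anaesthesia. The series set out to examine how insulin exposure bears on lipid metabolism in the brain. The labels do not say that each library is a separate mouse, so the p-values here speak to the spread from library to library, part of which may be technical. No replicate 2 at 15 min was among the 11 libraries.

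The values are deposited log2 signals with the same distribution in every library, as quantile normalization gives; 32037 to 33653 rows held a value in a library and the read depth is unknown. Every library held a value for the hippocampal markers Prox1 (0.13 to 1.10), Wfs1 (-0.60 to 0.22), Grik4 (-3.38 to -2.25) and Neurod2 (-1.49 to 1.65). Of these, Neurod2 varied most between libraries, and whether the libraries differ in tissue content was not tested. Levels depend on the genomic span of a gene (Spearman -0.815 between the lowest value and the span over 3251 rows seen in 2 to 6 libraries), so a level is compared here between libraries and not between genes, save for differences within a gene pair. On this scale the rows tested had a median change against saline of -0.14 after 15 min, -0.11 after 1 h and -0.04 after 6 h, and changes of gene groups are given beside these medians.

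None of the vascular genes passed the threshold of an adjusted p under 0.05 in any comparison (limma, Benjamini-Hochberg over all rows tested). With 2 to 3 libraries a group, this does not show that the genes were unchanged. At 15 min and at 1 h, insulin libraries held lower mean signals than saline for 23 of the 32 genes, near the share over all rows (68.7% and 66.8%), among them the angiopoietin receptor Tek, the pericyte receptor Pdgfrb, the organic anion transporter Slco1a4 and the matrix protein Vtn. In the other direction stood the clotting factor carrier Vwf, at 2.07-fold the saline level at 15 min, and the TGF-beta co-receptor Eng, at 1.67-fold. By 6 h Pdgfrb differed from saline by only -0.01 on the log2 scale, while the lipid transporter Mfsd2a stood 1.24-fold above saline.

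Against saline, 0 of 32 genes passed at 15 min, where 0.239% of all rows did (66 of 27653). At 1 h the count was also 0 of 32, against 0.877% of all rows (243 of 27706), and at 6 h 0 of 32, against 0% of all rows (0 of 27707). With all insulin libraries as 1 group, 0 of 32 passed and 0.119% of all rows did; in the F test over the 3 contrasts, 0 of 32 passed and 0.365% of all rows did. At an unadjusted p under 0.05, 10 members were lower and 2 higher at 15 min, against backgrounds of 13.2% and 1.86% of all rows. The corresponding counts were 10 lower and 1 higher at 1 h (backgrounds 12.8% and 2.87%) and 5 lower and 1 higher at 6 h (backgrounds 4.23% and 2.75%). Taken over all insulin libraries, 11 were lower and 2 higher (backgrounds 9.32% and 2.73%), and 7 reached it in the F test (background 14.4%). The smallest adjusted p-values of members (limma) were 0.106 for Vwf at 15 min, 0.0673 for Pdgfrb and 0.0682 for Slco1a4 at 1 h, and 0.649 for Vtn at 6 h.

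**Figure D1:**
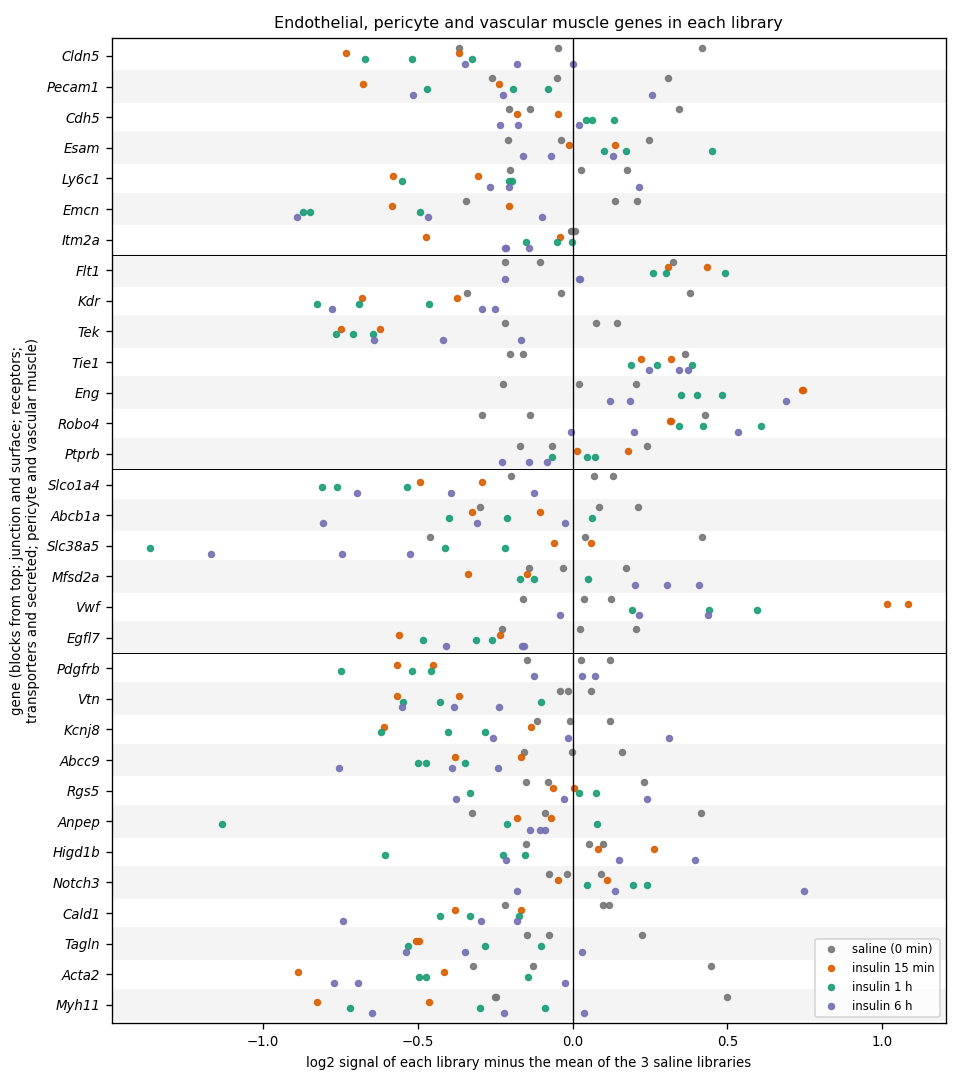
Log2 signal of each library minus the mean of the 3 saline libraries (x axis) for each of the 32 genes (y axis), with 1 point per library, in grey for saline and coloured for insulin at 15 min, 1 h and 6 h. The 15 min points of Vwf lie near 1.05, while those of Tek, centred near -0.68 at 15 min and -0.71 at 1 h, lie below every saline point.

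Genes whose insulin libraries all lay on 1 side of all saline libraries were also counted. The counts use the same log2 signals as the tests. At 15 min, 14 of 32 genes (43.8%) lay wholly below saline, where 31.1% of all rows did, and Eng and Vwf lay wholly above (6.25%, background 6.96%). At 1 h, 10 genes (31.2%, background 21.5%) lay wholly below and the same 2 wholly above (background 6.27%). By 6 h, 4 genes (12.5%, background 8.78%) lay wholly below and Mfsd2a alone wholly above (3.12%, background 4.31%). Vtn and Abcc9 were the genes for which all 8 insulin libraries lay below all 3 saline libraries (6.25%, background 4.21%), and for 0 genes did they all lie above (background 0.718%).

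The 32 genes had a median log2 change of -0.26 after 15 min, -0.31 after 1 h and -0.16 after 6 h, against the medians of all rows given above. Pericyte and vascular muscle genes had medians of -0.32, -0.36 and -0.19 at those times, and endothelial genes -0.23, -0.13 and -0.16. Scaling by cyclic loess brought the median of all rows to 0.00066, -0.0028 and -0.0066 and that of the 32 genes to -0.074, -0.17 and -0.11. Means below saline were found for 23, 23 and 24 of the 32 genes, and for 68.7%, 66.8% and 57% of all rows. Summed on a linear scale, the 12 pericyte and vascular muscle genes, of which Vtn makes up most, gave 9.17 to 10.4 in 15 min libraries, 9.26 to 11.8 at 1 h and 9.34 to 11.7 at 6 h, against 12.5 to 13.2 with saline. All insulin sums lay below the saline sums in that group, and so did every insulin library of Vtn alone, to which the sum is weighted. The contractile genes, a part of the group without Vtn, had sums of 0.727 to 0.987 with saline. Their sums were lower at 15 min (0.543 to 0.610) and overlapped saline at 1 h (0.591 to 0.732) and 6 h (0.522 to 0.793). Among the 20 endothelial genes Cldn5 makes up the largest part. Sums over these 20 genes were 13.7 to 16.6 at 15 min and 15.3 to 16.3 at 1 h, below the saline sums, 17.0 to 23.9. The 6 h sums, 16.6 to 20.0, overlapped saline. Over all rows with a value in every library the sums were 303437 to 306792 at 15 min and 304269 to 308629 at 1 h. These too lay below the saline sums, 311218 to 316306, and the 6 h sums, 309145 to 317592, overlapped them. Across libraries these all-row sums ranked as the number of rows with a value did, from 32037 in 15 min replicate 3 to 33653 in 6 h replicate 3. The part of this in the lower sums was not tested. In bulk tissue, fewer vascular cells and less of a transcript per cell cannot be told apart.

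**Figure D2:**
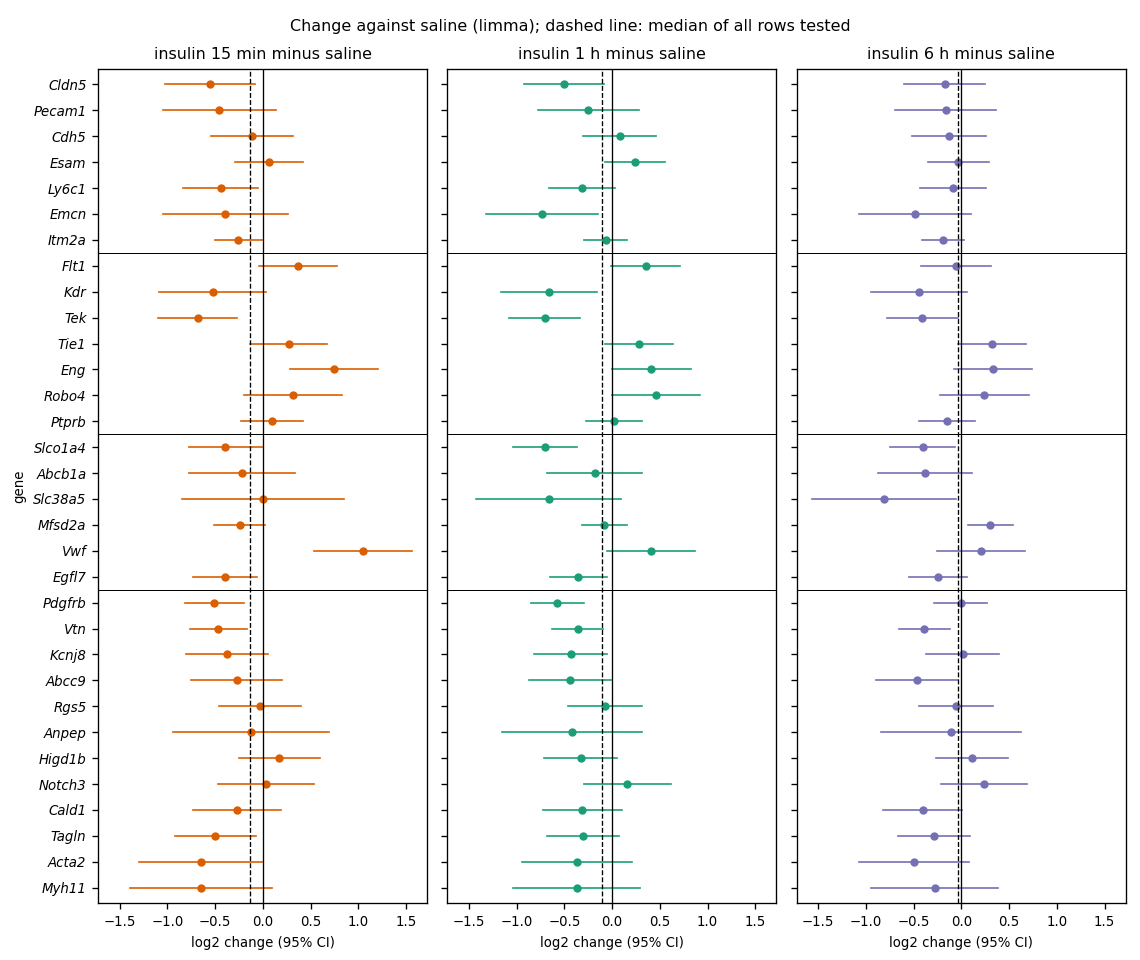
Log2 change of each gene (y axis) at 15 min, 1 h and 6 h of insulin minus saline (x axes), as limma estimates with 95% confidence intervals; the dashed line is the median of all rows tested. The intervals of Vwf and Eng at 15 min lie above 0 and those of Tek and Pdgfrb at 15 min and 1 h lie below it, before adjustment for the number of rows.

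To show the sequence in front of genes with means above and below saline, the 250 bases upstream of the start site are given for 4 members whose window lies wholly outside the annotated gene (RefSeq, GRCm38.p6, 5′ to 3′ on the gene's own strand). Eng lay above all saline libraries at 15 min and 1 h and Vtn below them in all insulin libraries, whereas Tie1, with means above saline, and Cldn5, with means below, overlapped saline at each time; none of the 4 passed the test. Capitals mark GGAA or TTCC, the core read by ETS factors, which regulate many endothelial genes, and CACCC or GGGTG, the box read by Klf factors, on either strand.
Eng, chr2:32646345-32646594, plus strand: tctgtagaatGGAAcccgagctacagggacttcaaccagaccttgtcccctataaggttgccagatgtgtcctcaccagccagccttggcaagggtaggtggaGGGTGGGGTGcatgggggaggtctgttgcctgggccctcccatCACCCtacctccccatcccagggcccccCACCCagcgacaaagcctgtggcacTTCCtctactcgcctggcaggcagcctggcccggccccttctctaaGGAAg
Tie1, chr4:118489850-118490099, minus strand: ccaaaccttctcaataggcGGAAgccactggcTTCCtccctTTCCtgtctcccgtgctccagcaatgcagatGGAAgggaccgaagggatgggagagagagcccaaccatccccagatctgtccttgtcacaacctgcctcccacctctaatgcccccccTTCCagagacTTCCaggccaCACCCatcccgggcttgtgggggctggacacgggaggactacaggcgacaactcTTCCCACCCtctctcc
Cldn5, chr16:18776597-18776846, plus strand: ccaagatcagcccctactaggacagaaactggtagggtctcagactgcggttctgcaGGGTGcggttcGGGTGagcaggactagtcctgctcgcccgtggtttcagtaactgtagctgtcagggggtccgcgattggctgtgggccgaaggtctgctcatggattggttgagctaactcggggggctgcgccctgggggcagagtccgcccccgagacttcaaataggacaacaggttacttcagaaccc
Vtn, chr11:78498870-78499119, plus strand: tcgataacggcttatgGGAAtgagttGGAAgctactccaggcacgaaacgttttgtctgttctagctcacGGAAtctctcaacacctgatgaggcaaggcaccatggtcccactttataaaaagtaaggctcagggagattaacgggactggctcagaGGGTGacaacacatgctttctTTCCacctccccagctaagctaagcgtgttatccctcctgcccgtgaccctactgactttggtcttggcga
The ETS core had 3 matches in Eng, 7 in Tie1, 0 in Cldn5 and 4 in Vtn, and the Klf box 4, 2, 2 and 1. Over 32851 promoters of that length, 93.4% hold an ETS core (mean 2.91 matches) and 52% a Klf box (mean 0.833). A promoter was listed for 23 of the 32 genes, of which 20 held the core and 18 the box in at least 1 window. These counts are per gene, with a match in any listed window of the gene, whereas the shares above are per promoter. The counts and shares therefore cannot be set against each other. These matches describe letters and do not show that a factor binds.

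Among the 7 junction and surface genes, 6 had means below saline at 15 min, 5 at 1 h and 7 at 6 h. Their median log2 changes were -0.39, -0.25 and -0.16. Over all rows, 68.7%, 66.8% and 57% had means below saline, with medians of -0.14, -0.11 and -0.04. Cldn5, the main claudin of the brain endothelial tight junction, had log2 signals of 3.56, 3.10 and 2.78 with saline, 2.78 and 2.41 at 15 min, 2.63, 2.48 and 2.82 at 1 h, and 3.15, 2.97 and 2.80 at 6 h. The groups overlapped at each time, and at 6 h all insulin libraries lay within the saline range. Its log2 change was -0.55 (SE 0.21; limma adjusted p = 0.265) at 15 min, -0.50 (SE 0.19; adjusted p = 0.234) at 1 h and -0.18 (SE 0.19; adjusted p = 0.814) at 6 h.

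Emcn, an endothelial sialomucin, read -3.77, -4.32 and -3.84 with saline, -4.18 and -4.56 at 15 min, -4.83, -4.85 and -4.47 at 1 h, and -4.08, -4.87 and -4.44 at 6 h. All 1 h libraries lay below saline, while the 15 min and 6 h libraries overlapped it. At 1 h its mean was 1.67-fold lower, the largest difference among the junction and surface genes at that time (log2 change -0.74, 95% CI -1.32 to -0.15; limma adjusted p = 0.216). Ly6c1, a lipid-anchored surface protein of brain endothelium, read 1.75, 1.60 and 1.37 with saline, 1.27 and 0.99 at 15 min, 1.38, 1.37 and 1.02 at 1 h, and 1.79, 1.37 and 1.30 at 6 h. Only its 15 min libraries lay wholly below saline (log2 change -0.44, SE 0.18; limma adjusted p = 0.282).

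The adhesion genes did not move as a block. Pecam1, the platelet and endothelial adhesion molecule, had log2 changes of -0.46, -0.25 and -0.16 at 15 min, 1 h and 6 h, whereas Cdh5, the cadherin of endothelial adherens junctions, had -0.11, 0.08 and -0.13. Esam, an adhesion molecule of endothelial tight junctions, had 0.06, 0.24 and -0.03. Itm2a, a membrane protein, read 1.31 and 0.87 at 15 min and 1.13, 1.13 and 1.21 at 6 h, against 1.34, 1.34 and 1.35 with saline. The insulin libraries lay wholly below saline at both times, with log2 changes of -0.26 and -0.19 (limma adjusted p = 0.32 and 0.721).

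Receptors split in direction: of 7, 5 had means above saline and 2, Tek and Kdr, below, at both 15 min and 1 h. Their median log2 changes were 0.27, 0.28 and, at 6 h, -0.06. Tek (chr4:94739086-94874976), the receptor for angiopoietins, had log2 signals of -2.58, -2.87 and -2.51 with saline, -3.28 and -3.40 at 15 min, -3.36, -3.42 and -3.30 at 1 h, and -2.82, -3.30 and -3.07 at 6 h. The 15 min and 1 h libraries lay wholly below saline and close to each other, and those at 6 h overlapped it. Its mean was 1.61-fold lower at 15 min (log2 change -0.68, SE 0.19; limma adjusted p = 0.162) and 1.63-fold lower at 1 h (-0.71, SE 0.17; adjusted p = 0.0836). At 6 h the change was -0.41 (SE 0.17; adjusted p = 0.703).

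Kdr (chr5:75932827-75979072), the main signalling receptor for vascular endothelial growth factor, read -2.32, -2.74 and -3.04 with saline, -3.07 and -3.38 at 15 min, -3.39, -3.52 and -3.16 at 1 h, and -2.95, -3.48 and -2.99 at 6 h. All 15 min and 1 h libraries lay below saline, though narrowly at 15 min, and the 6 h libraries overlapped it. The log2 changes were -0.53 (SE 0.25), -0.66 (SE 0.23) and -0.44 (SE 0.23), with limma adjusted p-values of 0.362, 0.199 and 0.721.

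Eng (chr2:32646595-32682669), the co-receptor for TGF-beta family ligands on endothelium, read -3.24, -3.67 and -3.42 with saline, -2.70 and -2.69 at 15 min, -2.96, -3.09 and -3.04 at 1 h, and -3.32, -2.75 and -3.26 at 6 h. It was higher than every saline library at 15 min and 1 h and overlapped saline at 6 h, where replicate 2 stood above the other two. Its 15 min libraries had nearly the same value. The log2 change was 0.74 (SE 0.21; limma adjusted p = 0.167) at 15 min, 0.41 (SE 0.18; adjusted p = 0.319) at 1 h and 0.33 (SE 0.18; adjusted p = 0.721) at 6 h.

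The other 4 receptors lay at or above saline in their means at the early times. Flt1, the decoy-type receptor for vascular endothelial growth factor, had log2 changes of 0.37, 0.35 and -0.06 at 15 min, 1 h and 6 h; Tie1, an orphan relative of Tek, had 0.27, 0.28 and 0.32; and Robo4, a roundabout receptor of endothelium, had 0.32, 0.46 and 0.24. Ptprb, the phosphatase that acts on Tek, had 0.10, 0.02 and -0.15. In each, saline replicate 1 lay above at least 1 insulin library at each time, so the groups overlapped, and their limma adjusted p-values against saline ran from 0.324 to 0.967.

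Related receptors can be set against each other within a library, where a change in the amount of endothelium cancels as far as both genes follow it. These pairs were chosen after their values were seen and carry no test. Tek minus Tie1 averaged 0.02 ± 0.32 with saline, -0.94 ± 0.02 at 15 min, -0.97 ± 0.14 at 1 h and -0.71 ± 0.23 at 6 h (SD on the log2 scale). Every insulin library, from -1.08 to -0.52, lay below every saline library, from -0.27 to 0.36. The share of G and C bases in the transcript (GC content) was 47.1% for Tek and 57.6% for Tie1. A pair does not cancel such a difference, and its part here was not tested. Kdr minus Flt1 averaged -0.02 ± 0.21 with saline, -0.92 ± 0.31 at 15 min, -1.03 ± 0.30 at 1 h and -0.41 ± 0.37 at 6 h. In this pair the 15 min and 1 h libraries lay below saline and the 6 h libraries, from -0.82 to -0.10, overlapped it.

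**Figure D3:**
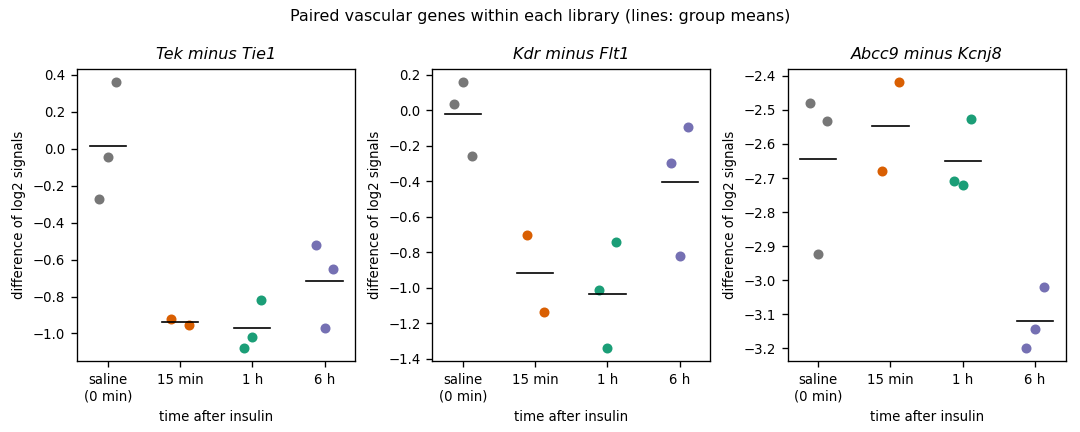
Difference of log2 signals within each library (y axis) for Tek minus Tie1, Kdr minus Flt1 and Abcc9 minus Kcnj8, by group (x axis), with 1 point per library and a line at the group mean. Tek minus Tie1 is near 0 with saline and near -0.9 at 15 min and 1 h, and Abcc9 minus Kcnj8 is lowest at 6 h.

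Of 6 transporters and secreted proteins of the endothelium, 5 had means below saline at 15 min and 1 h and 4 at 6 h. The shares over all rows were 68.7%, 66.8% and 57%. Slco1a4 (chr6:141805438-141856284), an organic anion transporter of the blood-brain barrier, had log2 signals of 0.22, -0.05 and 0.28 with saline, -0.14 and -0.34 at 15 min, -0.61, -0.66 and -0.39 at 1 h, and 0.03, -0.55 and -0.24 at 6 h. The 15 min and 1 h libraries lay wholly below saline and 6 h replicate 1 lay within it. The log2 change was -0.39 (SE 0.17; limma adjusted p = 0.319) at 15 min, -0.70 (SE 0.15; adjusted p = 0.0682) at 1 h, a 1.63-fold lower mean, and -0.40 (SE 0.15; adjusted p = 0.702) at 6 h. At 1 h the call turned on the setting: without 6 h replicate 2 in the shared fit the adjusted p was 0.0316.

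Vwf (chr6:125552948-125686679), stored in endothelial granules and also carried by platelets, read -4.81, -5.00 and -4.72 with saline, -3.76 and -3.83 at 15 min, -4.65, -4.25 and -4.40 at 1 h, and -4.88, -4.40 and -4.63 at 6 h. Both 15 min libraries stood far above all others, the 1 h libraries lay just above saline, and at 6 h the groups overlapped. Its mean was 2.07-fold the saline level at 15 min (log2 change 1.05, SE 0.23, 95% CI 0.54 to 1.56; limma adjusted p = 0.106), the largest change of a member in any comparison with saline. The change was 0.41 (SE 0.21; adjusted p = 0.379) at 1 h and 0.20 (SE 0.21; adjusted p = 0.802) at 6 h. With 2 libraries at 15 min, the error of this estimate leans on the spread within the other groups.

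Mfsd2a (chr4:122946850-122961194), which carries lysophosphatidylcholine with docosahexaenoic acid into the brain, read 0.20, -0.0026 and -0.11 with saline, -0.31 and -0.12 at 15 min, 0.08, -0.10 and -0.14 at 1 h, and 0.44, 0.33 and 0.23 at 6 h. It lay wholly, if narrowly, below saline at 15 min and wholly above at 6 h, and no other member lay on both sides. The log2 change was -0.24 (SE 0.12; limma adjusted p = 0.374) at 15 min, -0.08 (SE 0.11; adjusted p = 0.763) at 1 h and 0.30 (SE 0.11; adjusted p = 0.702) at 6 h. Set directly against 15 min, the 6 h mean was 0.55 higher on the log2 scale (limma adjusted p = 0.167).

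Slc38a5, a glutamine and amino acid transporter, was level with saline at 15 min (log2 change -0.0002) and had changes of -0.67 at 1 h and -0.81 at 6 h. Its 6 h libraries, at -4.42, -4.64 and -5.06, lay below the saline libraries, at -3.47, -3.85 and -4.35, and its standard error of 0.34 was the largest of the members at 6 h (limma adjusted p = 0.714). Abcb1a, the P-glycoprotein efflux pump, had changes of -0.22, -0.18 and -0.38 and overlapped saline at each time. Egfl7, a secreted regulator of vessel growth, lay wholly below saline at 15 min and 1 h, with changes of -0.40, -0.35 and -0.24 (limma adjusted p = 0.263, 0.243 and 0.721).

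Pericyte genes were lower in mean for 6 of 8 at 15 min, 7 at 1 h and 5 at 6 h. Their median log2 changes were -0.20, -0.39 and -0.03. Over all rows, 68.7%, 66.8% and 57% had means below saline, with medians of -0.14, -0.11 and -0.04. Pdgfrb (chr18:61045127-61085067), the receptor through which endothelial platelet-derived growth factor recruits pericytes, read -1.52, -1.79 and -1.62 with saline, -2.09 and -2.21 at 15 min, -2.10, -2.39 and -2.16 at 1 h, and -1.77, -1.57 and -1.61 at 6 h. The early libraries lay wholly below saline and the 6 h libraries wholly within its range. The log2 change was -0.51 (SE 0.14; limma adjusted p = 0.162) at 15 min and -0.58 (SE 0.12; adjusted p = 0.0673) at 1 h, a 1.49-fold lower mean. At 6 h it was -0.01 (SE 0.12; adjusted p = 0.989), and the 6 h mean exceeded that at 1 h by 0.57 (adjusted p = 0.192).

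Vtn (chr11:78499120-78502325), an adhesive matrix protein that brain pericytes make, read 3.30, 3.27 and 3.37 with saline, 2.95 and 2.75 at 15 min, 2.77, 3.21 and 2.89 at 1 h, and 3.08, 2.77 and 2.93 at 6 h. All 8 insulin libraries lay below all 3 saline libraries, which lay close to each other. The log2 change was -0.47 (SE 0.13; limma adjusted p = 0.176) at 15 min, -0.36 (SE 0.12; adjusted p = 0.191) at 1 h and -0.39 (SE 0.12; adjusted p = 0.649) at 6 h. Over all insulin libraries its limma adjusted p was 0.162, the smallest among the members.

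Abcc9 and Kcnj8 encode the sulphonylurea receptor and the pore of the vascular ATP-sensitive potassium channel, and both lie on chromosome 6 (chr6:142587862-142702766 and chr6:142564837-142571614). Abcc9 read -3.58, -3.89 and -3.73 with saline, -3.90 and -4.11 at 15 min, -4.08, -4.21 and -4.23 at 1 h, and -3.98, -4.49 and -4.12 at 6 h, so all insulin libraries lay below saline, the nearest only just. Over the 3 times Kcnj8 had log2 changes of -0.37, -0.44 and 0.01, and Abcc9 had -0.27, -0.44 and -0.46. Within a library, Abcc9 minus Kcnj8 averaged -2.65 ± 0.24 with saline, -2.55 ± 0.18 at 15 min, -2.65 ± 0.11 at 1 h and -3.12 ± 0.09 at 6 h, a pair also chosen after its values were seen. The subunits thus stood alike at 1 h, and at 6 h Abcc9 was still low and Kcnj8 was level with saline. The limma adjusted p-values at 6 h were 0.714 for Abcc9 and 0.987 for Kcnj8. GC content was 46.2% for Abcc9 and 53.3% for Kcnj8, and its part in this pair was not tested.

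The other 4 pericyte genes showed small or opposing changes. Rgs5, a regulator of G-protein signalling, had log2 changes of -0.03, -0.08 and -0.05 with standard errors of 0.17 to 0.19, the most level of the pericyte genes. Higd1b, a mitochondrial protein enriched in pericytes, had 0.17, -0.33 and 0.11, and its 1 h libraries lay narrowly below saline. Notch3, the Notch receptor of mural cells, had 0.03, 0.16 and 0.24, and at 6 h replicate 2 read -1.39 where the others read -2.32 and -2.00. Anpep, aminopeptidase N, had -0.13, -0.42 and -0.11, and 1 h replicate 1, at -6.33, was the lowest value of any member.

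All 4 contractile genes of vascular muscle had means below saline at each time. Their median log2 changes were -0.57 at 15 min, -0.34 at 1 h and -0.35 at 6 h. Over all rows, 68.7%, 66.8% and 57% had means below saline, with medians of -0.14, -0.11 and -0.04. With each gene taken minus its mean over the 11 libraries, the median of these 4 was 0.63 in saline replicate 1. In saline replicates 2 and 3 it was 0.076 and 0.11, so the changes lean in part on 1 saline library. Tagln, the actin-binding protein transgelin, read -1.05, -1.43 and -1.35 with saline, -1.78 and -1.77 at 15 min, -1.56, -1.38 and -1.81 at 1 h, and -1.25, -1.82 and -1.63 at 6 h. Its 15 min libraries lay wholly below saline and the later ones overlapped it. The log2 change was -0.50 (SE 0.19; limma adjusted p = 0.264) at 15 min, -0.31 (SE 0.17; adjusted p = 0.428) at 1 h and -0.28 (SE 0.17; adjusted p = 0.721) at 6 h.

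Acta2, smooth muscle actin, and Myh11, smooth muscle myosin, had wider spreads. At 15 min Acta2 read -2.65 and -3.12, against -1.79, -2.36 and -2.55 with saline, and Myh11 read -5.01 and -5.37, against -4.04, -4.79 and -4.79. Each lay wholly below saline at that time, with a log2 change of -0.65 (SE 0.29 and 0.33; limma adjusted p = 0.329 and 0.395). Saline replicate 1 was the highest library for both and stood well apart from the other saline libraries. Cald1, the actin regulator caldesmon, had changes of -0.27, -0.31 and -0.41 and overlapped saline at each time.

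Between insulin times, 0 of 32 genes passed at 1 h against 15 min (0% of all rows), 0 of 32 at 6 h against 15 min (0.00723% of all rows) and 0 of 32 at 6 h against 1 h (0.0108% of all rows). At an unadjusted p under 0.05, 2 members had lower means at 1 h than at 15 min and 0 higher (backgrounds 1.13% and 2.37%), Vwf with a log2 difference of -0.64 and Higd1b with -0.50. At 6 h against 15 min, 2 were higher and 2 lower (backgrounds 11.8% and 2.47%), with 0.55 for Mfsd2a, 0.50 for Pdgfrb, -0.43 for Flt1 and -0.84 for Vwf. At 6 h against 1 h, 4 were higher and 1 lower (backgrounds 8.91% and 2.17%), with 0.57 for Pdgfrb, 0.45 for Kcnj8, 0.44 for Higd1b, 0.39 for Mfsd2a and -0.41 for Flt1. The smallest limma adjusted p of a member in these comparisons was 0.167, for Mfsd2a between 6 h and 15 min. Libraries of the later time lay wholly below those of the earlier for 5 members and wholly above for 2 between 1 h and 15 min (backgrounds 6.42% and 10.9%), for 5 and 4 between 6 h and 15 min (7.08% and 22.3%), and for 3 and 4 between 6 h and 1 h (3.17% and 13.3%).

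The saline libraries differed among themselves for many members. Saline replicate 1 held the highest value of 14 of the 32 genes and the lowest of none (0 of 32). The lowest value lay in 15 min replicate 3 for 8 genes and in 6 h replicate 2 for 7. Such extremes were not counted over all rows. In saline replicate 1 the median deviation from the gene mean was 0.36 over the members and 0.090 over all rows with a value in every library. The median group SD of a member was 0.19 on the log2 scale. Without saline replicate 1, the median change of the 32 genes relative to all rows was -0.073 at 1 h in place of -0.21, -0.088 at 15 min in place of -0.13, and 0.014 at 6 h in place of -0.12. Leaving out 15 min replicate 3 or replicate 1 gave -0.049 and -0.22 at 15 min. Without 1 h replicate 3 the value at 1 h was -0.086, and at 6 h it was -0.034 without 6 h replicate 3, -0.18 without 6 h replicate 1 and -0.18 without saline replicate 3. For pericyte and vascular muscle genes the values without saline replicate 1 were -0.18 at 15 min, -0.18 at 1 h and -0.061 at 6 h, against -0.19, -0.26 and -0.16 with all libraries, and at 15 min they were -0.28 without 15 min replicate 1 and -0.065 without 15 min replicate 3. Endothelial genes had relative medians of -0.095, -0.027 and -0.12 with all libraries, which changed sign with single libraries left out: 0.025 at 15 min without 15 min replicate 3, 0.023 at 1 h without saline replicate 1 or without 1 h replicate 3, and 0.029 at 6 h without saline replicate 1.

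Base composition moved with the 6 h values. Across the 32 genes, the Spearman correlation of the log2 change with transcript GC content was 0.206, 0.320 and, at 6 h, 0.591, a description over genes that share libraries. Over 16053 coding rows it was 0.0186, 0.156 and 0.418. Single libraries stood apart in this: their deviation from the gene means correlated with GC content at 0.493 in 6 h replicate 2 and -0.405 in saline replicate 3, and between -0.150 and 0.063 in the others. Without these 2 libraries the 6 h correlation was 0.301 over the members and 0.0179 over coding rows. After the share of GC content was removed from each library, Vwf at 15 min passed (limma adjusted p = 0.0321), as did Slco1a4 and Pdgfrb at 1 h (adjusted p = 0.0296 and 0.0283). That fit held only the 16053 coding rows, against 27721 rows kept in the main fit. The log2 changes were 1.15, -0.61 and -0.52 there, against 1.05, -0.70 and -0.58. Whether the GC step or the smaller set of rows brought the 3 genes past the threshold was not tested. The part of GC content in the other changes was not tested.

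Other genes of the vessel wall, in 7 lists drawn up alongside the members, held 3 that passed against saline, and all 3 rose. These lists were drawn up with earlier results of these data known, so the 3 calls are not independent support. Over all rows, 12 rose and 54 fell of 27653 at 15 min, and 36 rose and 207 fell of 27706 at 1 h. Klf4 and Klf2 are transcription factors that endothelium raises under flow, though other cells also express them, and of 18 endothelial transcription factors these 2 rose and 0 fell at 15 min and at 1 h. Klf4 read -0.27 and -0.14 at 15 min, and -0.21, 0.02 and -0.32 at 1 h, against -1.98, -2.35 and -2.00 with saline. That is a log2 change of 1.91 (SE 0.15; limma adjusted p = 0.0034) at 15 min and 1.94 (SE 0.13; adjusted p = 0.00133) at 1 h. Klf2 read 1.14 and 0.52 at 15 min, and 0.59, 0.49 and 0.18 at 1 h, against -1.29, -1.45 and -1.36 with saline, a change of 2.20 (SE 0.21; adjusted p = 0.00845) and 1.79 (SE 0.19; adjusted p = 0.00376).

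At 6 h neither passed (0.48 for Klf4 and 0.72 for Klf2; limma adjusted p = 0.601 and 0.596), and Klf4 was lower at 6 h than at 15 min by -1.43 (adjusted p = 0.0337) and than at 1 h by -1.46 (adjusted p = 0.0145). Among 10 endothelial activation genes tested of 11, Cyr61, a matrix-bound ligand of integrins, rose at 15 min by 1.20 (SE 0.14; adjusted p = 0.0144) and 0 fell. At 1 h and 6 h its changes were 0.40 and 0.28 (adjusted p = 0.17 and 0.714). None of the 32 markers had a log2 change against saline larger in size than that of Vwf, 1.05.

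The remaining lists held no gene past the threshold: 0 of 18 vascular ligands and partners tested (of 20), 0 of 14 further barrier transporters, 0 of 10 tight and adherens junction genes, 0 of 11 basement membrane genes and 0 of 15 further mural genes (of 16), at 15 min, 1 h and 6 h. Slc2a1, the glucose transporter of the barrier, had log2 changes of 0.63, 0.65 and 0.26, with limma adjusted p = 0.142 at 15 min and 0.0688 at 1 h. Slc7a5, the large neutral amino acid transporter, had 0.47, 0.71 and 0.65, with adjusted p = 0.0591 at 1 h. Over all 14 genes of that list, 8 had means below saline at 15 min, 7 at 1 h and 7 at 6 h, with median log2 changes of -0.072, 0.00068 and -0.012.

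Mcam, an adhesion molecule of mural cells and endothelium, had -0.34, -0.55 and -0.08 (limma adjusted p = 0.0836 at 1 h), and Atp13a5, a pericyte-enriched transport ATPase, had -0.83, -0.83 and -0.63 (adjusted p = 0.092 at 1 h). The Notch ligand Jag1 had -0.47, -0.34 and -0.12 and the endothelial receptor Notch4 had 0.36, 0.47 and 0.47. The scaffold Tjp1 had -0.15, -0.25 and -0.29 and the adhesion molecule Jam3 -0.16, -0.25 and -0.18; the laminin chains Lama4 and Lamb1 had -0.67, -0.47 and -0.45, and -0.18, -0.31 and -0.01. The further mural genes had a median of -0.34 at 15 min, -0.24 at 1 h and 0.0036 at 6 h, beside -0.32, -0.36 and -0.19 for the pericyte and vascular muscle members.

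**Figure D4:**
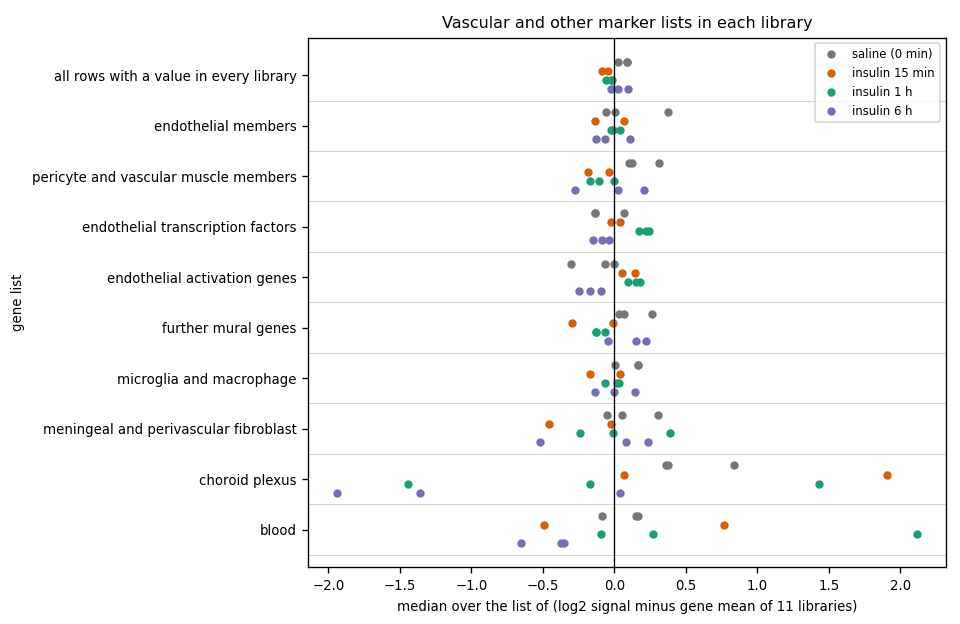
Median over each gene list of the log2 signal minus the gene's mean over the 11 libraries (x axis), for lists down the y axis, with 1 point per library, in grey for saline and coloured for insulin at 15 min, 1 h and 6 h. Endothelial members run from -0.14 to 0.37 and pericyte and vascular muscle members from -0.27 to 0.31. Choroid plexus runs from -1.94 to 1.90 and blood from -0.65 to 2.11.

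Choroid plexus and blood markers varied between libraries more than the 32 vessel genes did as a list. The median deviation of 9 choroid plexus genes lay between 0.07 and 1.90 at 15 min, -1.45 and 1.43 at 1 h, and -1.94 and 0.04 at 6 h, against 0.36 to 0.83 with saline, and their summed linear signal was 2.99 to 26.9 at 6 h, against 44.0 to 66.3 with saline. For 8 blood genes the medians lay between -0.50 and 0.76 at 15 min, -0.10 and 2.11 at 1 h, and -0.65 and -0.36 at 6 h, against -0.09 to 0.17 with saline. For 9 meningeal and perivascular fibroblast genes they lay between -0.46 and -0.02 at 15 min, -0.24 and 0.39 at 1 h, and -0.52 and 0.23 at 6 h, against -0.05 to 0.30 with saline. The summed linear signal of that fibroblast list lay between 3.36 and 5.34 at 15 min, 3.13 and 5.15 at 1 h, and 2.96 and 4.31 at 6 h, against 3.94 to 4.81 with saline. No gene of these 3 lists passed (limma), nor of the neuron, astrocyte, oligodendrocyte and ependyma lists. Kcnj13 of the choroid plexus, Alas2 of blood and Ogn of fibroblasts were below the filter on low values. The part of neighbouring tissue in the vascular values was not tested.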

How the data were processed

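RNA of 11 hippocampus libraries was sequenced from both ends after a stranded total RNA preparation, per the labels' protocols. GRCm38, Partek 6.7 and bcl2fastq are listed, per the submitters' processing notes; which aligner, counter and annotation were used is not given in the sources used here. The authors deposited 1 table of log2 signals per gene symbol, with missing cells marked, and its columns were matched to samples by the names their descriptions carry. From the values, each library has the same distribution, as quantile normalization gives, and base 2 fits the low rows: of 5654 rows, 499 differences between a pair of saline libraries lay within 0.05 of 1 and 272 within 0.05 of the natural log of 2. No pair of libraries held identical values in more than 0.0133% of rows. Read depth is unknown, so no counting interval is given.

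Rows in the lowest 40% by mean (below -8.66) were dropped, which kept 27721 of 46202, of which 1950 had missing cells. A linear model of the 4 groups was fitted to all 11 libraries in R 4.3.3 with limma 3.58.1 (moderated two-sided tests with a mean-variance trend, Benjamini-Hochberg adjustment over the rows tested, threshold 0.05), with a 2-group fit for all insulin libraries and an F test. A fold change is 2 raised to a difference of mean log2 signals. The fit was tested on simulated data. The members and lists were chosen with earlier results of these data known. Members given in full are, in each of 4 role groups, the 3 with the smallest unadjusted p against saline; from other lists, genes that passed or else the 2 with the smallest p. Genes and promoters come from RefSeq and GC content from GENCODE. Alternatives covered filters, normalization, the groups in the fit, the replicate block, empirical Bayes settings and leaving out each library; removing GC content and leaving out 2 libraries together were chosen after seeing the data. A result withheld for evaluation is not reported here.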

Additional observations from a re-analysis of the deposited data

How the results depend on the processing

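The count of members past the threshold stayed at 0 in 169 of 174 combinations of comparison and alternative. At 1 h against saline it was 1 with the stricter filter (Pdgfrb, limma adjusted p = 0.0449) and 1 without 6 h replicate 2 (Slco1a4, 0.0316). With GC content removed, a fit over coding rows only, it was 2 at 1 h (Slco1a4 and Pdgfrb) and 1 at 15 min (Vwf). Leaving out each library in turn gave 0 to 1 at 1 h and 0 to 0 in the other comparisons. With the replicate number as a block the count was 1 at 1 h (Slco1a4, adjusted p = 0.0485) and 0 elsewhere; the numbers were not taken to pair the libraries, since no label ties them and the correlations of same-numbered libraries, -0.056 to 0.237, were not all positive, although 8 of 11 libraries matched their own number best, a hint of pairing from the data and not from the design. The block also took the rows passing over the whole table to 159 at 1 h, against 243 without it, and 38 at 15 min, against 66. Rows passing over the whole table also moved by over 1.5 times with only the groups compared in the fit (1 at 15 min and 138 at 1 h), without the trend (114 at 15 min), with cyclic loess (37 at 15 min, 56 in the F test), with library median centring (49 in the F test), and with saline replicate 3 and 6 h replicate 2 both left out (35 at 15 min, 76 at 1 h and 33 in the F test, against 101, and 4 for all insulin libraries). For all insulin libraries, where 33 rows passed, the count was 11 with no filter, 56 with the stricter filter, 0 without the trend and 0 with the block. Leaving out single libraries gave 5 to 104 rows at 15 min, 42 to 479 at 1 h, 0 to 63 for all insulin libraries and 18 to 124 in the F test, which gave 40 with the block; at 1 h the highest count came without 6 h replicate 2. No log2 change of a named member larger than its standard error changed sign. The cause of these differences was not tested. With 2 to 3 libraries a group and unknown depth, a member's change on the scale of the median group SD could not be told from the spread between libraries.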
